A study of Homo sapiens with 12 samples.

Results

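The glycolysis and hypoxia genes followed here are a named list of 40 human genes. It holds the enzymes that turn glucose into pyruvate and lactate, the kinases that steer that flow, the oxygen-sensing factors, and genes known to respond to low oxygen. A gene entered through the array probe set that carries its symbol and no other, and a gene with more than 1 such probe set was read from its brightest. A probe set of its own was found for 38 of the 40 genes, all 38 passed the filter on low values, and BNIP3 and CA9 were not analysed here. They were measured among 20572 genes that passed that filter. The arrays read RNA of MDA-MB-231, a human cell line grown from the pleural effusion of a breast carcinoma, a basal-like line that lacks the estrogen and progesterone receptors. Cells were treated for 24 h with TNFɑ at 40 ng/ml together with apigenin at 40 µM (TNFɑ+apigenin), with apigenin alone, with TNFɑ alone, or left untreated (control), on 3 arrays each. TNFɑ is an inflammatory cytokine that acts through NF-kB, and apigenin is a plant flavone. All 4 groups were grown in a high-glucose medium (4500 mg/L glucose) under 95% air and 5% CO2, and no label names a hypoxic treatment; the agents were prepared in a buffered salt solution at concentrations the submitters call sub-lethal. The labels name no vehicle for the control cells and do not say whether the 3 arrays of a group came from separate cultures, so p-values measure the spread between these arrays, which may be technical.

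Glycolysis splits glucose into pyruvate, which either enters the mitochondria through pyruvate dehydrogenase or is reduced to lactate. Hypoxia-inducible factors are held down in air by the prolyl hydroxylases of the EGLN family, which mark the alpha subunits for destruction; when oxygen is short the subunits accumulate and raise genes for glucose use, blood vessel growth, matrix formation and mitochondrial turnover. Breast carcinoma lines are known to keep a high glycolytic rate even in air.

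Values are log2 expression values, so a difference of 1 is a doubling of the array reading; levels of different probe sets are not comparable with each other. The filter level, the lower quartile of an array, lay at 1.60 to 1.65. The line's mesenchymal markers were well above it, with VIM at 7.93 to 8.30, AXL at 9.88 to 10.19 and MSN at 9.58 to 10.34. The luminal genes PGR (1.37 to 1.84), ESR1 (1.84 to 2.44) and CDH1 (1.81 to 2.10) lay near it, while EPCAM read 4.58 to 5.24 and GATA3 3.65 to 4.67. KRT18, also luminal, read 2.93 to 4.04, and fell by 0.47 with apigenin against control (adjusted p = 0.0452) and by 0.79 with TNFɑ+apigenin against control (adjusted p = 0.0021). Of 7 leukocyte markers 4 passed the filter, and of 7 fibroblast and endothelial markers 3 did; none of these was called in any comparison, and the median over each list stayed within 1.93 to 2.42 and 2.02 to 2.45 on the 12 arrays. CD68, which tumour cells also make in their lysosomes, was the exception in level at 9.52 to 9.95, while PTPRC and CD3E did not pass the filter. Of 9 markers of the line, 4 fell in each apigenin comparison (44.4%, against 6.83% of all genes lower with apigenin against control and 5.92% with TNFɑ+apigenin against TNFɑ), a larger share than among the 38 listed genes, with EGFR, MET and FN1 in both (-0.87, -0.70 and -0.37 against control); their part in the results was not tested. In a bulk sample fewer cells and less RNA per cell cannot be told apart. Arrays of a group correlated at 0.983 to 0.991 over all genes. The median of the small nucleolar RNA probe sets, a class that moved between arrays, was 4.31, 4.47 and 4.36 with TNFɑ+apigenin, 5.21, 4.36 and 4.68 with apigenin, 3.68, 4.48 and 3.52 with TNFɑ, and 4.23, 4.02 and 4.03 in control cells.

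With apigenin alone, 12 of the 38 measured genes fell and 1 rose, and 11 of the 12 that fell were regulators and hypoxia-response genes, such as PDK1, EGLN1 and VEGFA. In the comparison of apigenin with control, 13 of 38 genes were called at an adjusted p under 0.05 (34.2%), against 11.4% of all genes tested; 12 were lower, against a background of 6.83%, and 1 was higher, against 4.55%. In TNFɑ-treated cells, where TNFɑ+apigenin was compared with TNFɑ, 11 of 38 were called (28.9%), against 10.1% of all genes; 10 were lower (background 5.92%) and 1 higher (4.21%). The median difference of the 38 genes was -0.29 for apigenin minus control and -0.24 for TNFɑ+apigenin minus TNFɑ, while that of all genes was -0.019 and -0.012. The chain of 16 enzymes from glucose to lactate gave 1 call, lower, in each of these comparisons (6.25%), near the share of all genes called lower. The 22 measured regulators and hypoxia-response genes gave 12 and 10 (54.5% and 45.5%). Within the chain, levels ran from 2.31 to 3.65 for PGAM1 up to 9.76 to 9.97 for PKM. How well its low rows, such as PGAM1 and TPI1 (3.23 to 4.27), report their RNA was not tested.

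The arrays can also be read without a model. All 3 apigenin arrays lay below all 3 control arrays for 18 of 38 genes (47.4%, background 14.5%), and all 3 TNFɑ+apigenin arrays lay below all 3 TNFɑ arrays for 18 of 38 as well (47.4%, background 14.6%). For 10 genes (26.3%, background 5.71%) the 6 arrays with apigenin all lay below the 6 without it: PFKP, PFKFB2, PFKFB4, PDK1, EPAS1, EGLN1, BNIP3L, VEGFA, P4HA1 and NDRG1. ADM was the 1 gene whose 6 apigenin arrays all lay above the other 6 (background 4.18%).

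**Figure D1:**
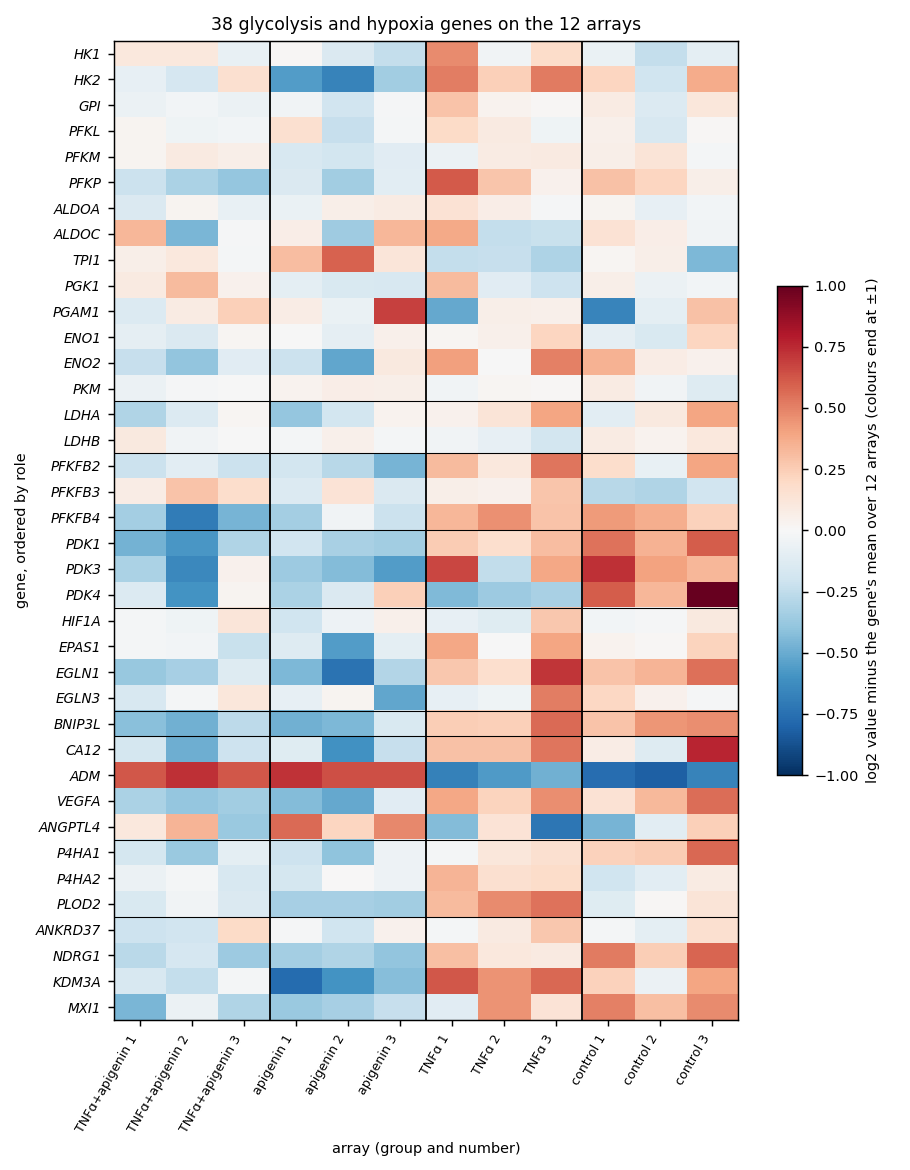
Log2 value of each of the 38 genes on each of the 12 arrays, minus that gene's mean over the 12 arrays, with genes ordered by role (black lines) and colours ending at ±1. The 6 arrays with apigenin are blue for PDK1, EGLN1, BNIP3L, VEGFA and NDRG1 and red for ADM, while most enzyme rows at the top, such as PKM and ENO1, stay pale.

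Among the 14 enzymes from glucose to pyruvate, HK2 and PFKP were the ones called in an apigenin comparison. HK2 encodes the hexokinase isoform that tumours often use for the first step, the phosphorylation of glucose. It read 5.53, 5.44 and 5.77 with TNFɑ+apigenin, 5.05, 4.94 and 5.26 with apigenin, 6.12, 5.85 and 6.13 with TNFɑ and 5.82, 5.41 and 5.98 in control cells. The 3 apigenin arrays were the lowest group with no overlap with control, and the TNFɑ+apigenin arrays lay between apigenin and TNFɑ. HK2 fell by 0.65 with apigenin alone against control (SE 0.16, adjusted p = 0.0162), while the difference of TNFɑ+apigenin from TNFɑ, -0.45, was not called (adjusted p = 0.0971). The call was lost without control replicate 1 or 3, or without apigenin replicate 1 or 2, at adjusted p of 0.0587 to 0.0682.

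PFKP encodes the platelet type of phosphofructokinase, the enzyme of the committed step. Its values were 6.85, 6.75 and 6.68 with TNFɑ+apigenin, 6.92, 6.72 and 6.96 with apigenin, 7.68, 7.34 and 7.11 with TNFɑ and 7.36, 7.28 and 7.12 in control cells. Every array with apigenin was below every array without it, reading at most 6.96, against at least 7.11 without apigenin. The fall of 0.62 for TNFɑ+apigenin against TNFɑ passed the test (SE 0.15, adjusted p = 0.0152); the difference of -0.38 between apigenin and control did not (adjusted p = 0.121). Without TNFɑ replicate 1 or without TNFɑ+apigenin replicate 3 the first of these missed the threshold (adjusted p = 0.0725 and 0.0566).

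The rest of the chain was not called with apigenin in the fit reported here. Phosphoglycerate kinase, PGK1, which makes ATP from a bisphosphoglycerate, read 6.52, 6.75 and 6.47 with TNFɑ+apigenin, 6.33, 6.28 and 6.27 with apigenin, 6.75, 6.32 and 6.22 with TNFɑ and 6.49, 6.37 and 6.40 in control cells. These ranges overlapped between most groups, and the apigenin differences were -0.13 against control and 0.15 against TNFɑ, with 95% intervals of -0.43 to 0.17 and -0.15 to 0.45. LDHA, the lactate dehydrogenase subunit that favours lactate formation, read 4.94, 5.11 and 5.26 with TNFɑ+apigenin, 4.86, 5.06 and 5.28 with apigenin, 5.29, 5.37 and 5.64 with TNFɑ and 5.14, 5.34 and 5.64 in control cells. Its differences of -0.31 for apigenin minus control and -0.33 for TNFɑ+apigenin minus TNFɑ had intervals of -0.65 to 0.03 and -0.67 to 0.01 and were not called (adjusted p = 0.279 and 0.246). Pyruvate kinase, PKM, stayed within 9.76 to 9.97 over all 12 arrays and enolase, ENO1, within 5.06 to 5.43. The neuronal-type enolase ENO2 differed by -0.37 with apigenin alone and -0.55 with TNFɑ+apigenin against TNFɑ, also uncalled (adjusted p = 0.224 and 0.0622). Triosephosphate isomerase, TPI1, had differences of the opposite sign, 0.47 and 0.31, uncalled as well (adjusted p = 0.0652 and 0.262). With the replicate number as a block in the fit, LDHA was called in both comparisons (adjusted p = 0.044 and 0.032). That fit also called TPI1 against control (0.0151) and ENO2 against TNFɑ (0.0121). HK1, GPI, PFKL, PFKM, ALDOA, ALDOC, PGAM1 and LDHB were not called in any comparison, and among them PGAM1 (2.31 to 3.65) and ALDOC (2.69 to 3.52) varied most between arrays of one group.

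The PFKFB enzymes make and break fructose bisphosphate signals that switch phosphofructokinase on, and they set how fast glucose is committed to glycolysis. PFKFB4 (probe set 16953424) read 3.72, 3.36 and 3.59 with TNFɑ+apigenin, 3.72, 4.02 and 3.84 with apigenin, 4.39, 4.51 and 4.34 with TNFɑ and 4.48, 4.42 and 4.29 in control cells. Its 6 apigenin arrays were the 6 lowest, reading at most 4.02, against at least 4.29 without apigenin. PFKFB4 fell by 0.85 with TNFɑ+apigenin against TNFɑ (SE 0.13, adjusted p = 0.000891), to 55.3% of the TNFɑ level, and by 0.54 with apigenin against control (SE 0.13, adjusted p = 0.0126). The call against control missed the threshold without control replicate 1 (adjusted p = 0.0514) or apigenin replicate 1 (0.0642). PFKFB2, the cardiac isoform, read 3.63, 3.74 and 3.63 with TNFɑ+apigenin, 3.66, 3.57 and 3.38 with apigenin, 4.16, 3.95 and 4.38 with TNFɑ and 4.02, 3.77 and 4.24 in control cells. It too was lowest on the arrays with apigenin, reading at most 3.74, against at least 3.77 without apigenin; the fall of 0.50 for TNFɑ+apigenin against TNFɑ was called (SE 0.15, adjusted p = 0.0457), and the difference of -0.48 for apigenin against control lay just outside the threshold (adjusted p = 0.0505). Leaving out any of 5 of the 6 arrays, all but TNFɑ replicate 2, ended the PFKFB2 call (adjusted p = 0.0845 to 0.175). Of 15 alternative fits, 6 kept it. PFKFB3, the inducible isoform known to favour glycolysis, did not follow them: it read 5.10, 5.31 and 5.20 with TNFɑ+apigenin, 4.89, 5.16 and 4.88 with apigenin, 5.08, 5.07 and 5.30 with TNFɑ and 4.75, 4.72 and 4.83 in control cells. The 3 control arrays were its lowest, and neither apigenin comparison was called (0.21 and 0.05, adjusted p = 0.338 and 0.893).

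Pyruvate dehydrogenase kinases phosphorylate and shut pyruvate dehydrogenase, and so keep pyruvate out of the mitochondria. All 3 listed kinases fell with apigenin alone. PDK1, the kinase best known as a hypoxia-inducible target, read 6.31, 6.20 and 6.48 with TNFɑ+apigenin, 6.59, 6.46 and 6.44 with apigenin, 7.04, 6.95 and 7.09 with TNFɑ and 7.33, 7.13 and 7.39 in control cells. The arrays with apigenin were apart from the rest, reading at most 6.59, against at least 6.95 without apigenin. PDK1 fell by 0.79 with apigenin against control (SE 0.12, adjusted p = 0.000779), to 58% of the control level, and by 0.70 with TNFɑ+apigenin against TNFɑ (SE 0.12, adjusted p = 0.00215). PDK3 read 4.97, 4.64 and 5.33 with TNFɑ+apigenin, 4.92, 4.85 and 4.73 with apigenin, 5.95, 5.04 and 5.67 with TNFɑ and 6.02, 5.69 and 5.62 in control cells. It fell by 0.94 with apigenin against control (SE 0.22, adjusted p = 0.0123) with no overlap, but TNFɑ+apigenin and TNFɑ overlapped, and the difference of -0.57 there was not called (adjusted p = 0.133). PDK4, a kinase that starvation and fatty acids are known to raise, read 2.80, 2.34 and 2.96 with TNFɑ+apigenin, 2.62, 2.79 and 3.17 with apigenin, 2.49, 2.57 and 2.61 with TNFɑ and 3.54, 3.27 and 4.05 in control cells. Here the control arrays alone stood high: PDK4 fell by 0.76 with apigenin against control (SE 0.21, adjusted p = 0.0293), whereas TNFɑ+apigenin differed from TNFɑ by 0.14 (adjusted p = 0.787), the opposite sign. The PDK3 call ended without control replicate 1 (adjusted p = 0.0567), and the PDK4 call without control replicate 1 or 3 or apigenin replicate 1 or 2 (adjusted p = 0.0604 to 0.129).

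**Figure D2:**
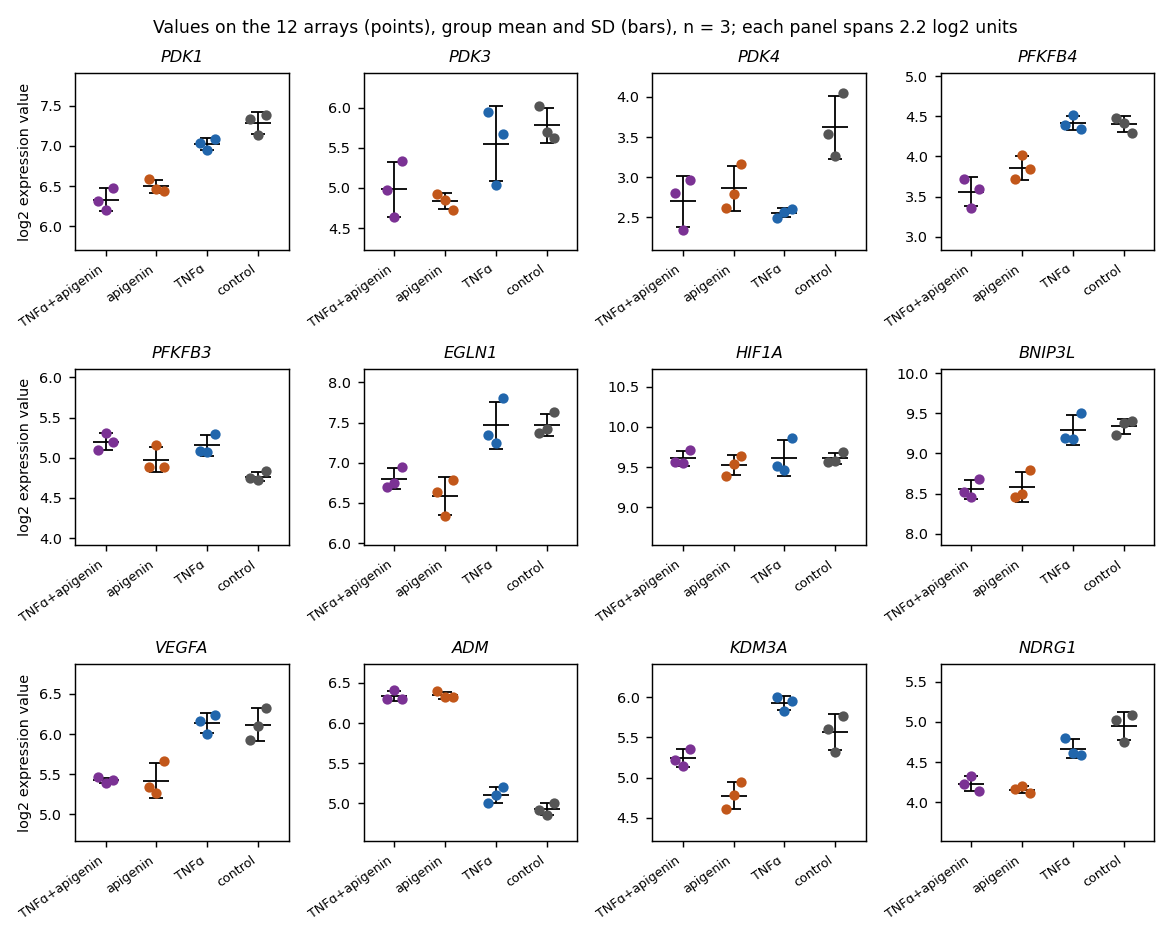
Log2 values of 12 genes on the 12 arrays (points), with group mean and SD (bars, n = 3), in panels that each span 2.2 log2 units. The orange and purple points (apigenin and TNFɑ+apigenin) lie below the blue and grey ones for PDK1, PFKFB4, EGLN1, BNIP3L, VEGFA and NDRG1, above them for ADM, and level with them for HIF1A; for PDK4 the control points alone are high.

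Of the oxygen-sensing genes, the hydroxylase EGLN1 fell and the factor genes were not called. HIF1A, the alpha subunit of hypoxia-inducible factor 1, read 9.57, 9.55 and 9.71 with TNFɑ+apigenin, 9.39, 9.54 and 9.64 with apigenin, 9.51, 9.47 and 9.86 with TNFɑ and 9.56, 9.58 and 9.69 in control cells. All 4 groups overlapped. Its apigenin differences were -0.08 against control and 0.00 against TNFɑ, with 95% intervals of -0.36 to 0.19 and -0.28 to 0.27 (adjusted p = 0.78 and 0.994); the arrays measure its RNA, and its protein, which oxygen controls, was not measured. EPAS1, which encodes the HIF-2 alpha subunit, read 5.75, 5.74 and 5.54 with TNFɑ+apigenin, 5.64, 5.21 and 5.67 with apigenin, 6.15, 5.76 and 6.16 with TNFɑ and 5.80, 5.78 and 5.99 in control cells. The arrays with apigenin lay just below the rest, reading at most 5.75, against at least 5.76 without apigenin, and the differences of -0.35 against control and -0.35 against TNFɑ were not called (adjusted p = 0.185 and 0.198).

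EGLN1 encodes the main prolyl hydroxylase that marks the factors for destruction in air, and is itself known to be induced by them. It read 6.70, 6.75 and 6.95 with TNFɑ+apigenin, 6.63, 6.34 and 6.79 with apigenin, 7.35, 7.25 and 7.80 with TNFɑ and 7.37, 7.42 and 7.63 in control cells. The arrays with apigenin were all below the others, reading at most 6.95, against at least 7.25 without apigenin. EGLN1 fell by 0.89 with apigenin against control (SE 0.16, adjusted p = 0.0028), to 54.1% of the control level, and by 0.67 with TNFɑ+apigenin against TNFɑ (SE 0.16, adjusted p = 0.0179). The call against TNFɑ missed the threshold without TNFɑ replicate 3 or without TNFɑ+apigenin replicate 1 or 2 (adjusted p = 0.0624 to 0.0791). EGLN3, a hydroxylase that hypoxia strongly raises in many cells, was near the filter level, at 1.75 to 2.78, and was not called.

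BNIP3L, a mitochondrial outer-membrane protein that tags mitochondria for removal by autophagy, read 8.52, 8.46 and 8.68 with TNFɑ+apigenin, 8.46, 8.49 and 8.79 with apigenin, 9.19, 9.18 and 9.51 with TNFɑ and 9.23, 9.38 and 9.41 in control cells. Every array with apigenin was lower than every array without it, reading at most 8.79, against at least 9.18 without apigenin. BNIP3L fell by 0.76 with apigenin against control (SE 0.13, adjusted p = 0.00227), to 59.1% of the control level, and by 0.74 with TNFɑ+apigenin against TNFɑ (SE 0.13, adjusted p = 0.00317).

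The pH and secreted factors split. ADM, the precursor of adrenomedullin, a vasodilator peptide and a common hypoxia marker, was the one gene that rose in the apigenin comparisons. It read 6.30, 6.41 and 6.30 with TNFɑ+apigenin, 6.40, 6.32 and 6.32 with apigenin, 5.00, 5.11 and 5.20 with TNFɑ and 4.92, 4.86 and 5.01 in control cells. No array of either apigenin group came near the others: the lowest with apigenin was 6.30 and the highest without it 5.20. ADM rose by 1.42 with apigenin against control (SE 0.10, adjusted p = 3.49e-06), to 267% of the control level, and by 1.23 with TNFɑ+apigenin against TNFɑ (SE 0.10, adjusted p = 1.52e-05). VEGFA, the growth factor that drives blood vessel sprouting, moved the other way and read 5.46, 5.39 and 5.43 with TNFɑ+apigenin, 5.34, 5.26 and 5.66 with apigenin, 6.16, 6.0 and 6.24 with TNFɑ and 5.92, 6.10 and 6.33 in control cells. Its apigenin arrays were the 6 lowest, reading at most 5.66, against at least 5.92 without apigenin. VEGFA fell by 0.70 with apigenin against control (SE 0.14, adjusted p = 0.00466) and by 0.71 with TNFɑ+apigenin against TNFɑ (SE 0.14, adjusted p = 0.00523). CA12, a membrane carbonic anhydrase that helps export acid, differed by -0.55 and -0.66 in the same comparisons, uncalled (adjusted p = 0.109 and 0.055). Some alternative fits called CA12 lower in both, as after quantile normalisation (0.0219 and 0.0135) and with the replicate block (0.0244 and 0.00995). ANGPTL4, a secreted inhibitor of lipoprotein lipase, had differences of 0.53 and 0.36 with wide intervals, 0.02 to 1.04 and -0.15 to 0.87, and was not called.

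Collagen is stabilised by hydroxylation of its proline and lysine residues, and 3 genes of the list encode such enzymes. P4HA1, a catalytic subunit of collagen prolyl hydroxylase, read 8.69, 8.50 and 8.77 with TNFɑ+apigenin, 8.66, 8.47 and 8.82 with apigenin, 8.85, 8.98 and 9.03 with TNFɑ and 9.10, 9.12 and 9.44 in control cells. The arrays with apigenin were the lowest, reading at most 8.82, against at least 8.85 without apigenin, and the fall of 0.57 against control was called (SE 0.14, adjusted p = 0.0144), while the difference of -0.30 between TNFɑ+apigenin and TNFɑ was not (adjusted p = 0.222). The call ended without control replicate 3 or apigenin replicate 2 (adjusted p = 0.0611 and 0.0665). PLOD2, a lysyl hydroxylase, read 8.61, 8.73 and 8.62 with TNFɑ+apigenin, 8.43, 8.43 and 8.42 with apigenin, 9.08, 9.24 and 9.31 with TNFɑ and 8.64, 8.78 and 8.89 in control cells. The TNFɑ arrays were the highest and the apigenin arrays the lowest. PLOD2 fell by 0.56 with TNFɑ+apigenin against TNFɑ (SE 0.11, adjusted p = 0.00565), and its difference of -0.34 between apigenin and control was not called (adjusted p = 0.0639). The second prolyl hydroxylase subunit, P4HA2, was not called (0.00 and -0.31).

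Of the other hypoxia-induced genes, NDRG1, KDM3A and MXI1 fell. NDRG1, a stress-responsive gene linked to restrained metastasis, read 4.23, 4.33 and 4.14 with TNFɑ+apigenin, 4.16, 4.20 and 4.11 with apigenin, 4.80, 4.61 and 4.59 with TNFɑ and 5.02, 4.75 and 5.08 in control cells. It was lowest on the arrays with apigenin, reading at most 4.33, against at least 4.59 without apigenin. NDRG1 fell by 0.79 with apigenin against control (SE 0.12, adjusted p = 0.000804) and by 0.44 with TNFɑ+apigenin against TNFɑ (SE 0.12, adjusted p = 0.0332). Without any one of 5 arrays, all but TNFɑ replicate 2, the call against TNFɑ was lost (adjusted p = 0.0531 to 0.136). Of 15 alternative fits, 6 kept that call. KDM3A, a histone demethylase that itself needs oxygen, read 5.22, 5.14 and 5.36 with TNFɑ+apigenin, 4.61, 4.78 and 4.95 with apigenin, 6.0, 5.83 and 5.95 with TNFɑ and 5.61, 5.32 and 5.77 in control cells. Each apigenin group was below its own comparison group with no overlap, although the TNFɑ+apigenin arrays reached the lowest control array. KDM3A fell by 0.79 with apigenin against control (SE 0.14, adjusted p = 0.00205) and by 0.69 with TNFɑ+apigenin against TNFɑ (SE 0.14, adjusted p = 0.00628). MXI1, a repressor that competes with MYC for its partner MAX, read 2.74, 3.14 and 2.90 with TNFɑ+apigenin, 2.83, 2.87 and 2.97 with apigenin, 3.09, 3.65 and 3.34 with TNFɑ and 3.70, 3.50 and 3.67 in control cells. The fall of 0.74 with apigenin against control was called (SE 0.15, adjusted p = 0.00542); TNFɑ+apigenin and TNFɑ overlapped by a small margin, and their difference of -0.43 was not called (adjusted p = 0.092). ANKRD37, a small ankyrin-repeat protein gene, stayed within 3.36 to 3.84 and was not called.

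**Figure D3:**
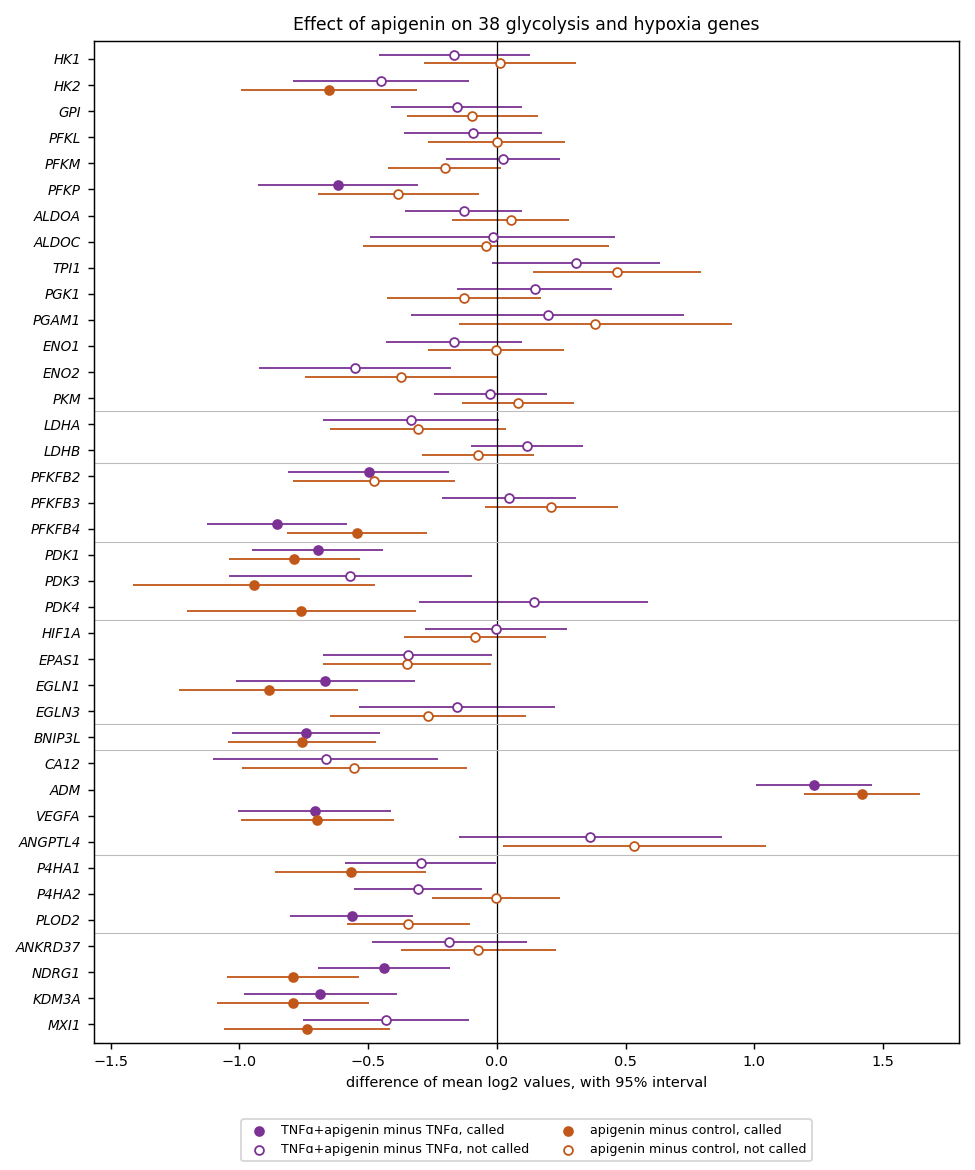
Difference of mean log2 values with 95% interval for the 38 genes, for TNFɑ+apigenin minus TNFɑ (purple) and apigenin minus control (orange), filled where called. ADM stands alone on the right at 1.23 and 1.42, and the filled points on the left lie between -0.94 (PDK3) and -0.44 (NDRG1).

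The apigenin comparisons share no array. Both came from 1 fit with a residual variance common to all 4 groups, so they are not fully independent. Called lower in both were 7 genes, BNIP3L, EGLN1, KDM3A, NDRG1, PDK1, PFKFB4 and VEGFA, which are 58.3% of the genes called lower with apigenin against control and 70% of those called lower with TNFɑ+apigenin against TNFɑ. Over all genes these shares were much the same, 58.5% and 67.5%. Of all genes tested, 4% were called lower in both, and 2.75% higher in both; ADM was the 1 listed gene called higher in both. The calls of ADM, KDM3A, NDRG1 and PDK1 against control, and those of ADM, BNIP3L, KDM3A, PDK1, PFKFB4 and VEGFA against TNFɑ, held in every one of 15 alternative fits. Among these fits, those with other filters or averaged probe sets left the values of these genes unchanged and could hardly end a call. With the small nucleolar RNA median as a covariate, 5 of 13 calls remained for apigenin against control (ADM, KDM3A, MXI1, NDRG1 and PDK1), while BNIP3L, EGLN1, VEGFA, HK2, P4HA1, PDK3, PDK4 and PFKFB4 missed the threshold (adjusted p = 0.0546 to 0.239). The differences of these 8 genes were -0.79 to -0.51 with the covariate and -0.94 to -0.54 without it. For TNFɑ+apigenin against TNFɑ, 8 of 11 remained, without EGLN1, NDRG1 and PFKFB2. Of all genes, 4.95% and 5.81% were called in these comparisons with the covariate, against 11.4% and 10.1% without it. With the 4 arrays numbered 3 left out, 8 genes were called against control, HK2, MXI1, P4HA1, PDK3 and PFKFB4 being lost (adjusted p = 0.0552 to 0.0709), and 7 against TNFɑ, EGLN1, NDRG1, PFKFB2 and PLOD2 being lost (0.0522 to 0.209). Without these arrays, 7.32% and 6.26% of all genes were called.

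Hypoxia-inducible factors bind a short core, ACGTG or GCGTG, and the promoter windows of the genes called in both comparisons are shown where they hold it. Windows of 300 bases, 250 before and 50 after the gene start, came from RefSeq (GRCh38.p14), and 36 of the 40 genes had one. At least 1 core on either strand was found in 26 of 36 (72.2%), against 48.4% of 35116 windows of the same length. Those background windows were not matched to the listed genes for base content. Of the 15 genes called lower with apigenin in at least 1 comparison, 11 had a window (BNIP3L, NDRG1, PFKFB2 and VEGFA did not), and 7 of these 11 held it (63.6%), as did 16 of 22 genes called in neither (72.7%). The overlapping E-box CACGTG was found in 4 of 36 (11.1%), against 7.26% of all windows. The PDK1 window held none of these, and LDHA, which was not called, held 5 ACGTG and 1 GCGTG counted over both strands. The LDHA window also held 2 of the E-boxes. An E-box reads as ACGTG on both strands, so the 5 matches in LDHA are not all separate sites. The 4 windows shown, from ADM, PFKFB4, EGLN1 and KDM3A, are written 5′ to 3′ along the gene, and capitals mark the core. That of ADM lies at chr11:10304823-10305122, plus strand, with the core starting at -101 from the gene start. PFKFB4 lies at chr3:48556754-48557053, minus strand, with the core at -166. EGLN1 lies at chr1:231422238-231422537, minus strand, with the core at -13. KDM3A lies at chr2:86441121-86441420, plus strand, with the core at -26. A match describes the letters in the window and not binding.
ADM: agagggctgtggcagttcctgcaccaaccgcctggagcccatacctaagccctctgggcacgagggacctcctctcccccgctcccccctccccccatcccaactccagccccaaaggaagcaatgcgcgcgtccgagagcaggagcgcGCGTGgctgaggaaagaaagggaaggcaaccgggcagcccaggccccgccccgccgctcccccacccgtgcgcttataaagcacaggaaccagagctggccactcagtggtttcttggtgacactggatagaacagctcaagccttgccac
PFKFB4: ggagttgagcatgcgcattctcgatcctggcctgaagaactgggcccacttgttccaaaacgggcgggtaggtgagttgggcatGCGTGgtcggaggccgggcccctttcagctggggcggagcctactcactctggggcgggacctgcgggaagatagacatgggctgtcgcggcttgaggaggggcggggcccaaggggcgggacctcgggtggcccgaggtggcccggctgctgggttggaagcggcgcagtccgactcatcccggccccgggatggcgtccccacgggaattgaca
EGLN1: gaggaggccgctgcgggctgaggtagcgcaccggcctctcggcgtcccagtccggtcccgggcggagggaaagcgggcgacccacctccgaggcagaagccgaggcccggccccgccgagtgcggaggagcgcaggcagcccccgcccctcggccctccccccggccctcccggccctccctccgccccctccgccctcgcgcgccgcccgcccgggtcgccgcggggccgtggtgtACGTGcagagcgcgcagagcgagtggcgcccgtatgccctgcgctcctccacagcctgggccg
KDM3A: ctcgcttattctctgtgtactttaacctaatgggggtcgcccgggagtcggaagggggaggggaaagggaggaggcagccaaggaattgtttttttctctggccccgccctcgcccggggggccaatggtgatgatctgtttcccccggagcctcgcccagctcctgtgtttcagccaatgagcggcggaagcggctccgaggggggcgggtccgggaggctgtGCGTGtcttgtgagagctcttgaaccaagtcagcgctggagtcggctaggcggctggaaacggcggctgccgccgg

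Against untreated cells, the combination called 13 of 38 genes (34.2%), against 12.5% of all genes: 11 lower (background 5.37%) and 2 higher (7.15%). This comparison uses the control arrays of the apigenin comparison, so the values stand side by side and are not a repeat of it. All 3 TNFɑ+apigenin arrays lay below all 3 control arrays for 15 of 38 genes (39.5%, background 12.9%). The largest falls were those of PDK1 (-0.95, SE 0.12, adjusted p = 0.000163) and PDK4 (-0.92, SE 0.21, adjusted p = 0.00946), followed by PFKFB4 (-0.84), PDK3 (-0.80) and BNIP3L (-0.79). NDRG1, MXI1, VEGFA, EGLN1, P4HA1 and PFKP were the other genes that fell. ADM rose by 1.41 (SE 0.10, adjusted p = 3.1e-06), and PFKFB3, by 0.44 (SE 0.12, adjusted p = 0.0289). Neither HK2 (-0.15, adjusted p = 0.651) nor KDM3A (-0.33, adjusted p = 0.157) was called here. Calls that leaving out single arrays ended were those of PFKP (without any array but control replicate 3, adjusted p = 0.0701 to 0.134), PDK3 (without control replicate 1 or 2 or TNFɑ+apigenin replicate 1 or 2, 0.0542 to 0.121), PFKFB3 (without control replicate 1 or 2 or TNFɑ+apigenin replicate 2 or 3, 0.0747 to 0.109), EGLN1 (without control replicate 3 or TNFɑ+apigenin replicate 1, 0.0502 and 0.0611) and P4HA1 (without control replicate 3 or TNFɑ+apigenin replicate 2, 0.0552 and 0.0641). PFKFB3 was also lost after quantile normalisation (adjusted p = 0.171).

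TNFɑ alone changed 1 of the 38 genes: PDK4 fell by 1.06 against control (SE 0.21, adjusted p = 0.0249), to 47.9% of the control level. That is 2.63% of the genes, against 0.997% called among all genes (0.219% lower). The TNFɑ arrays of PDK4 lay between 2.49 and 2.61, below all control arrays, which ranged from 3.27 to 4.05, and near the low end of the scale. The call was lost without control replicate 1 or 3, or without TNFɑ replicate 1 or 3 (adjusted p = 0.0606 to 0.119), and when the TNFɑ and control arrays were fitted alone (0.0689). A further 7 genes had an unadjusted p under 0.05 with no call, which makes 8 of 38, against 2387 of 20572 genes in all. The differences of 5 were positive: PLOD2 (0.44, adjusted p = 0.0937), PFKFB3 (0.39, 0.192), KDM3A (0.36, 0.33), HK1 (0.34, 0.348) and P4HA2 (0.30, 0.333). Those of NDRG1 (-0.28, 0.389) and PDK1 (-0.26, 0.425) were negative. PLOD2 was called, higher, with trended and robust empirical Bayes settings (adjusted p = 0.0141) and with the replicate block (0.0386). The 3 TNFɑ arrays lay above all control arrays for 5 genes (13.2%, background 8.42%) and below them for 4 (10.5%, background 5.22%). HIF1A differed by 0.00 (95% interval -0.27 to 0.28).

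In apigenin-treated cells, TNFɑ+apigenin against apigenin, limma called none of the 38 genes, against 0.209% of all genes; 3 had an unadjusted p under 0.05, HK2 (0.50), KDM3A (0.47) and PFKFB4 (-0.30), and the lowest adjusted p was 0.4. All 15 alternative fits called none as well. The 3 TNFɑ+apigenin arrays lay above the apigenin arrays for 5 genes (13.2%, background 10.4%) and below them for 2 (5.26%, background 3.77%). The difference between the responses to TNFɑ with and without apigenin was tested directly as an interaction, and none of the 38 genes passed, against 0.0535% of all genes. The largest was PDK4 at 0.90 (95% interval 0.27 to 1.53, unadjusted p = 0.00836, adjusted p = 0.999), the 1 gene with an unadjusted p under 0.05. With 3 arrays a group an exact permutation test on a single gene cannot go below a two-sided p of 0.1.

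**Figure D4:**
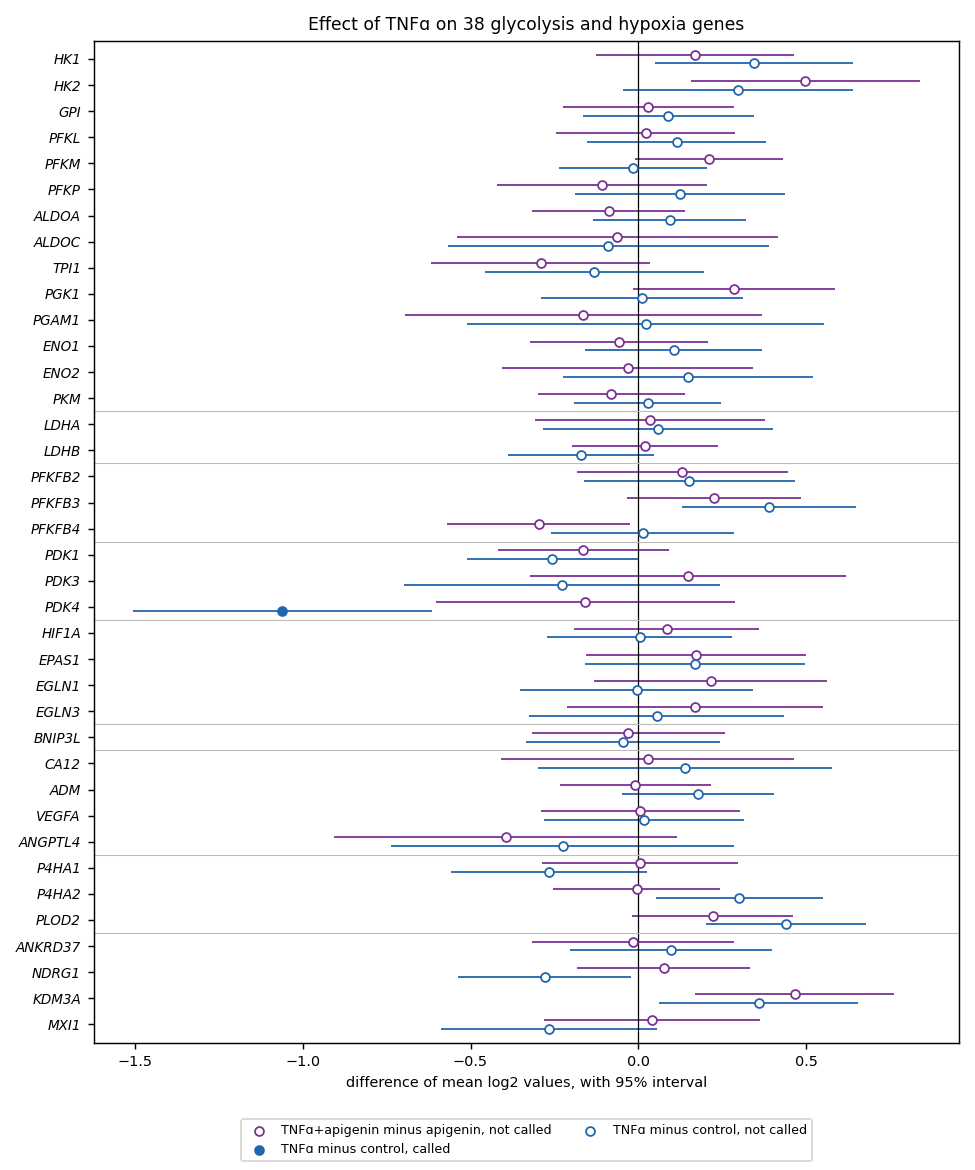
Difference of mean log2 values with 95% interval for the 38 genes, for TNFɑ+apigenin minus apigenin (purple) and TNFɑ minus control (blue), filled where called. The single filled point is PDK4 at -1.06, and the other differences lie between -0.40 and 0.50.

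Other genes of these pathways were counted from separate lists. Of 26 other glycolysis genes 20 passed the filter. With apigenin against control 6 of them were called (30%, against 11.4% of all genes), 2 higher (ADPGK, an ADP-dependent glucokinase, 0.48, and BPGM, which makes the red-cell bisphosphoglycerate, 0.38) and 4 lower. With TNFɑ+apigenin against TNFɑ, 5 were called (25%, against 10.1%), all lower. Lower in both were PDHB, a subunit of the pyruvate dehydrogenase that the kinases act on (-0.92 and -0.76, adjusted p = 0.000419 and 0.00186), MPC2, a subunit of the mitochondrial pyruvate carrier (-0.45 and -0.47), and HKDC1, a hexokinase relative (-0.79 and -1.03). PDK2, another pyruvate dehydrogenase kinase, fell with apigenin against control (-0.68, adjusted p = 0.0308). Its probe set was near the filter level, at 1.73 to 1.97 with apigenin and 2.35 to 2.77 in control cells. DLAT (-0.54) and PGM1 (-0.46) fell with TNFɑ+apigenin against TNFɑ. GAPDH, a central glycolytic enzyme, read 4.84 to 5.07 over the 12 arrays and was not called. The combination against control called 8 of the 20 (40%, against 12.5%), with BPGM and TIGAR higher and 6 lower, and neither comparison that tests TNFɑ called any.

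Of 32 other hypoxia-response genes 30 passed the filter. With apigenin against control 6 were called (20%, against 11.4% of all genes), all lower: ARNT2 (-0.89), INSIG2 (-0.82), WSB1 (-0.66), STC1 (-0.54), TET1 (-0.52) and RBPJ (-0.45). With TNFɑ+apigenin against TNFɑ, 2 were called, BHLHE41 (-0.85) and STC1 (-0.62), both lower. That is 6.67% of the list, near the 5.92% of all genes called lower; STC1 encodes stanniocalcin, a secreted calcium-regulating glycoprotein. With TNFɑ+apigenin against control, 5 were called (16.7%, near the 12.5% of all genes): VHL, the ubiquitin ligase subunit that recognises hydroxylated HIF (0.52, adjusted p = 0.016), JMJD6 (0.63) and BHLHE40 (0.46) rose, and INSIG2 (-0.70) and TET1 (-0.48) fell. DDIT4, an inhibitor of mTORC1, was the 1 gene called with TNFɑ against control (-0.66, adjusted p = 0.0348).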

How the data were processed

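MDA-MB-231 RNA was read on 12 Affymetrix whole-transcript arrays, 3 in each of 4 groups, after labelling with a whole-transcript reagent kit. The authors deposited log2 expression values per probe set, and the submitters' processing notes name Affymetrix Expression Console, with version and normalisation method not given in the sources used here. The log2 scale was read from the range of the 53617 probe sets, 0.54 to 12.50. Per the platform annotation, 23871 carry 1 gene symbol, 1842 several and 27904 none; 90 symbols were updated through gene identifiers.

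A probe set was kept where it reached the 25th percentile of its array on at least 3 arrays, and each gene took its highest probe set, leaving 20572 genes. HIF1A alone among the listed genes had more than 1. One limma fit (3.58.1, R 4.3.3) of 4 group means on all 12 arrays, with 8 residual degrees of freedom, gave 6 comparisons, each adjusted by Benjamini-Hochberg over all genes and called at 0.05. For arrays, the number of arrays limits the precision.

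The gene list, the other lists, the tests and the alternatives were chosen with earlier results of these data known. A listed gene was given its values on every array where it was called in at least 1 comparison or belonged to a panel of HIF1A, EPAS1, VEGFA, LDHA, HK2, PGK1, PDK1 and CA9. Alternatives were quantile normalisation, other filters, averaged probe sets, other empirical Bayes settings, a fit of the compared groups alone, the replicate number as a block, the small nucleolar RNA median as a covariate, and arrays left out.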

Additional observations from a re-analysis of the deposited data

How the results depend on the processing

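Of 570 re-computed differences of called genes, 486 kept their call, 84 lost it and none changed sign. The fits with other filters or averaged probe sets left the values of the called genes unchanged, and each kept 38 of 38 calls. For TNFɑ against control the count of called genes, 1 as reported, was 2 with trended and robust empirical Bayes settings, 2 with the replicate block, 0 with only the compared groups in the fit, 0 without the arrays numbered 3, and 0 to 1 with single arrays left out. For apigenin against control, 13 as reported, it was 5 with the small nucleolar RNA covariate, 8 without the arrays numbered 3, 18 with the replicate block and 9 to 15 with single arrays left out. For TNFɑ+apigenin against TNFɑ, 11 as reported, it was 7 without the arrays numbered 3, 15 with the replicate block and 8 to 13 with single arrays left out. For TNFɑ+apigenin against control, 13 as reported, it was 15 with the replicate block, 17 after quantile normalisation and 9 to 11 with single arrays left out. The remaining comparison and the interaction called 0 throughout. The share of all genes called moved too. For apigenin against control, 11.4% as reported, it was 4.95% with the covariate, 7.32% without the arrays numbered 3 and 17% with the block. For TNFɑ+apigenin against TNFɑ, 10.1% as reported, it was 6.26% without those arrays and 16.1% with the block. For TNFɑ+apigenin against control, 12.5% as reported, it was 18.6% with the block and 16.3% after quantile normalisation. For TNFɑ against control, 0.997% as reported, it was 3.07% with the block and 0.355% with only the compared groups in the fit. In the apigenin comparisons the block added LDHA (adjusted p = 0.044 against control and 0.032 against TNFɑ) and CA12 (0.0244 and 0.00995). It also added PFKFB2, PLOD2 and TPI1 (0.0338, 0.0338 and 0.0151) against control, and ENO2 and HK2 (0.0121 and 0.0114) against TNFɑ. For TNFɑ against control it added PLOD2 (0.0386), and for TNFɑ+apigenin against control CA12 (0.0294) and ENO2 (0.0494). Quantile normalisation added CA12, PFKFB2 and PLOD2 against control (0.0219, 0.0137 and 0.0127), and CA12, ENO2 and HK2 against TNFɑ (0.0135, 0.0343 and 0.00933). MXI1 was added against TNFɑ without TNFɑ replicate 1 (0.0467), and PDK3 without TNFɑ replicate 2 (0.018). The cause of these shifts was not tested. The median differences of the 38 genes moved in none of 95 fits by more than the typical spread of a single gene between replicates. That is a wide margin for a median over 38 genes. With the small nucleolar RNA covariate, the median for apigenin against control went from -0.288 to -0.191. Medians near 0 changed sign in some fits. TNFɑ against control ranged from -0.007 to 0.091, TNFɑ+apigenin against apigenin from -0.063 to 0.067 and the interaction from -0.084 to 0.019. The labels do not say whether the replicate numbers pair the arrays. In the data, 11 of 12 arrays correlated best with an array of their own number, once group means were removed. Between groups, same-number correlations ranged from 0.02 to 0.46, and those of other numbers from -0.44 to 0.1. The fit reported in the Results did not include these numbers. Probe sets near the filter level, such as EGLN3 and PGAM1, can show only small falls, and 3 arrays a group limit the size of change that can pass.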

Other observations

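HIF1A had a second probe set of its own, not used in the report because it was the dimmer one. It read 2.89, 1.97 and 2.18 with TNFɑ+apigenin, 2.70, 2.03 and 2.14 with apigenin, 2.09, 2.24 and 2.39 with TNFɑ and 2.08, 1.99 and 2.32 in control cells, and the groups overlapped. Replicate 1 of both apigenin groups was its highest there, but not on the probe set used.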
